A study of Mus musculus with 16 samples.

Results

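The nuclear genes of the mitochondrial respiratory chain and ATP synthase were described as they stand in the gene annotation deposited with a study of mouse macrophages. Members were the Ensembl protein-coding genes on chromosomes 1 to 19 and X whose names begin with Nduf, Cox4 to Cox8, Uqcr or Atp5, or are Sdha, Sdhb, Sdhc or Sdhd. The rule found 92 members among 21762 protein-coding genes on these chromosomes and 50578 genes in the whole annotation. The rule itself reads names and biotypes only.

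Oxidative phosphorylation takes place in the inner mitochondrial membrane. Complexes I and II pass electrons from NADH and succinate to ubiquinone, complex III passes them to cytochrome c and complex IV to oxygen, and ATP synthase uses the proton gradient that complexes I, III and IV build. A few core subunits are encoded in the mitochondrial genome, and all others, with the assembly factors, are nuclear genes whose proteins are imported. In macrophages, LPS is known to change how this chain is used, with succinate oxidation by complex II as one of the steps studied.

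The study set LPS-treated against untreated bone-marrow-derived macrophages, cells grown for 7 days from mouse marrow with the growth factor M-CSF at 50 ng per ml. LPS (lipopolysaccharide) is a glycolipid of bacterial cell walls, and the treatment protocol names stimulation times of 6 and 24 h. The 16 libraries were 3 LPS and 3 untreated RNA-seq libraries from wild-type C57BL/6 cells, 2 untreated, 2 LPS 6 h and 2 LPS 24 h RiboTag libraries from LysM-Cre x RiboTag cells, and 2 LPS and 2 untreated ribosome profiling libraries from wild-type C57BL/6 cells with cycloheximide (CHX). RiboTag recovers ribosome-bound RNA by an HA tag on a ribosomal protein, here in cells in which the myeloid LysM promoter drives Cre, and ribosome profiling sequences fragments protected by ribosomes. No member is described as changed by LPS, since values per library were not analysed here. For the same reason the depth is unknown and the cell type was not checked against its markers. Genes are not replicates, so all comparisons are descriptions with no test.

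The members fell into 7 complex I core subunits, 29 complex I accessory subunits, 7 complex I assembly factors, 4 complex II genes, 8 complex III genes, 20 complex IV genes and 17 ATP synthase genes. Ndufa4 and Ndufa4l2, named after complex I, were counted with complex IV, of which Ndufa4 is a subunit. Atp5s and Atp5sl were counted with ATP synthase by name. All 92 had a transcript with both a start and a stop codon. The promoter table matched 73 of them by symbol. Those without a match included Atp5a1, Atp5f1, Atp5s, Atp5sl, Cox4i1, Cox4i2, Cox6a2, Cox6c, Cox8c, Ndufa2, Ndufa4l2, Ndufaf6, Ndufb9, Ndufs1, Sdhc, Uqcrb, Uqcrc2 and Uqcrq.

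Promoter letters were compared with those of all protein-coding genes, beginning with the NRF1 motif. Nuclear respiratory factor 1 (NRF1) is a transcription factor named for its sites in genes of this kind. Its motif was taken as GCGCA and GCGC with any base between them. Searched on both strands of the window from 250 bases before to 50 bases after the RefSeq start, it was present in 18 of 73 member promoters (24.7%), against 6.94% of 15719 promoters of protein-coding genes. The 18 were Atp5g2, Atp5g3, Atp5h, Atp5k, Atp5o, Cox6a1, Ndufa5, Ndufa6, Ndufa8, Ndufa11, Ndufaf4, Ndufaf5, Ndufb4, Ndufs5, Ndufs6, Sdha, Sdhd and Uqcrc1. The windows below show the motif in capitals for 1 member of each group that held it and for the members with a second motif, 5′ to 3′ in the direction of the gene (RefSeq, GRCm38.p6).
Sdha, chr13:74350319-74350348, minus strand: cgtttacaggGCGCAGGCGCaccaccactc
Sdha, chr13:74350276-74350305, minus strand: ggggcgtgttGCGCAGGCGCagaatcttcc
Sdha, chr13:74350231-74350260, minus strand: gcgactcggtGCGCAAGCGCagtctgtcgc
Sdhd, chr9:50603909-50603938, minus strand: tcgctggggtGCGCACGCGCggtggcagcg
Ndufs6, chr13:73328479-73328508, minus strand: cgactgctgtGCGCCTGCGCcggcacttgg
Ndufaf4, chr4:24897960-24897989, plus strand: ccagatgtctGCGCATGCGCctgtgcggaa
Uqcrc1, chr9:108936668-108936697, plus strand: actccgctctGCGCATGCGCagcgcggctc
Cox6a1, chr5:115349101-115349130, minus strand: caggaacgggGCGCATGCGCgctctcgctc
Atp5g3, chr2:73911295-73911324, minus strand: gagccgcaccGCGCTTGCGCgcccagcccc

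By complex, the NRF1 motif stood in 2 of 3 complex II promoters, 7 of 27 accessory subunits of complex I, 2 of 6 assembly factors, 1 of 5 complex III genes, 1 of 14 complex IV genes and 5 of 13 ATP synthase genes, and in 0 of 5 core subunits of complex I. These groups are small and the differences between them were not tested. Over the 18 members there were 24 matches, 18 of them beginning before the RefSeq start, from position -191 in Ndufb4 to position 31 in Uqcrc1. Sdha, the catalytic flavoprotein subunit of complex II, and Ndufb4, an accessory subunit of complex I, each held 3 matches. Cox6a1 and Uqcrc1 held 2 each, so 4 members held more than 1.

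The other motifs ranged from above to near the level of other genes. YY1, a zinc-finger factor with a motif of AA and ATGGCGGC with any base between them, had a match in 4 of 73 member promoters (5.48%) against 1.64% of all. The ETS motif CCGGAAG, bound by GABPA (also called NRF-2), had a match in 16 of 73 (21.9%) against 12.3%. The motif TCAAGGTCA of the estrogen-related receptor alpha (ERR alpha) had a match in 2 of 73 (2.74%), Atp5g3 and Sdhd, against 0.318%. SP1 (GGGCGGG) was found in 25 of 73 (34.2%) against 36.1%, CCAAT in 32 of 73 (43.8%) against 38.6%, and the TATA letters TATAAA in 7 of 73 (9.59%) against 12.9%, so these 3 were near the level of all promoters. The TATAAA matches ran from position -235 in Ndufb7 to 5 in Cox8b, and the nearest before the start was at -52 in Ndufa7. All motifs were searched on both strands. A match in letters is not a bound site, and binding was not measured.

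**Figure D1:**
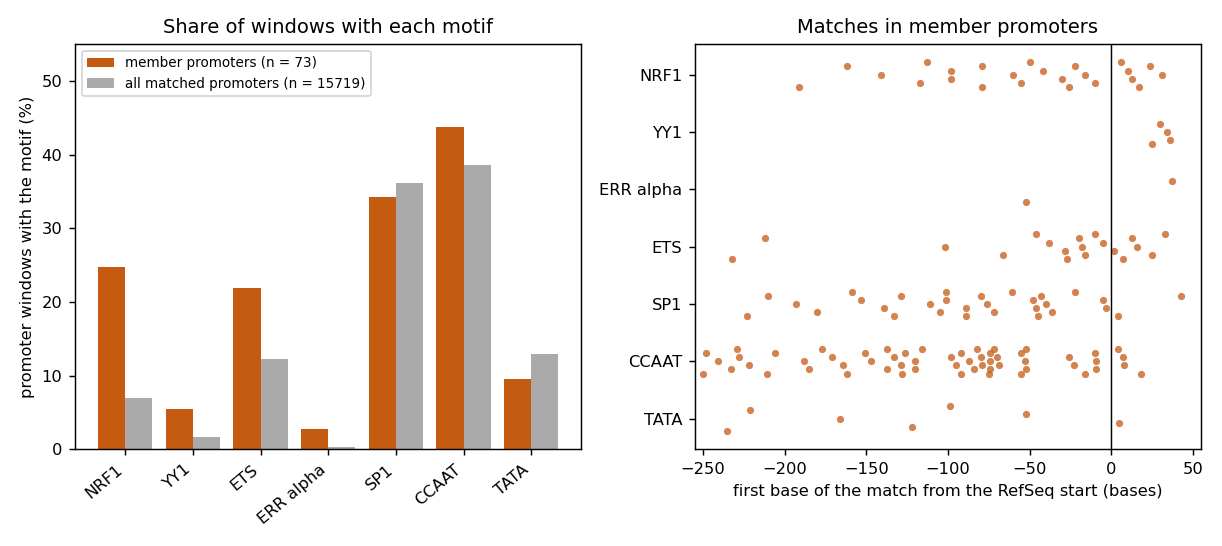
Left, share of promoter windows that hold each motif, in 73 member promoters (orange) and in 15719 promoters of protein-coding genes (grey). Right, first base of every match in the member promoters, in bases from the RefSeq start at the line. The NRF1 bars stand at 24.7% in members and 6.94% in all promoters, and all 4 YY1 matches lie after the start.

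All 4 YY1 matches lay at the start codon. They belonged to complex I genes, the core subunit Ndufs7, which carries an iron-sulfur cluster, and the accessory subunits Ndufa9, Ndufs4 and Ndufs6. In each, the ATG inside the motif was the annotated start codon, as the capitals show.
Ndufa9, chr6:126849095-126849124, minus strand: ttgtgggagAAGATGGCGGCcgccgtccgc
Ndufs4, chr13:114388045-114388074, minus strand: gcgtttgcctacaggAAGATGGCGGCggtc
Ndufs6, chr13:73328433-73328462, minus strand: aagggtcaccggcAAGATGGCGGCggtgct
Ndufs7, chr10:80249464-80249493, plus strand: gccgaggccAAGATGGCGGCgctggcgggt
The motif began at positions 25 to 36 from the RefSeq start. Of the members whose start codon fell inside the window, 4 of 19 (21.1%) had this arrangement, against 90 of 3126 protein-coding genes with a start codon in the window (2.88%). In these 3126 windows the annotated start codon read ATG in 3123, which checks that the annotation and the sequences share a build.

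Members holding at least 2 of the NRF1, YY1 and ERR alpha motifs numbered 3 of 73, against 0.153% of all 15719 promoters. Ndufs6 held NRF1 and YY1. Sdhd, a membrane anchor of complex II, and Atp5g3, which encodes the c subunit of the ATP synthase rotor ring, held NRF1 and ERR alpha. The ERR alpha matches of these genes read on the opposite strand, shown here in capitals in the direction of the gene.
Atp5g3, chr2:73911359-73911388, minus strand: tgttacaaagTGACCTTGAgcgtcttcccc
Sdhd, chr9:50603800-50603829, minus strand: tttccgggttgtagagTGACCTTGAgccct
The match in Atp5g3 began at position -52 and that in Sdhd at position 37, after the start. Of the 73 matched members, 52 held none of these 3 motifs, against 91.3% of all promoters.

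Base composition gave a mixed picture. The median GC content of the window was 57.3% in members and 57.3% in all promoters. The ratio of observed to expected CpG dinucleotides, which is low where CpG sites have been lost from the genome, had a median of 0.828 in members (quartiles 0.667 and 0.940, n = 73), against 0.610 in all promoters (quartiles 0.241 and 0.841, n = 15719). Within the members the lowest value was 0.115 in Cox8b, the heart and muscle isoform of a small complex IV subunit, against 0.842 in Cox8a, the isoform used in most tissues. Cox7a1, also a heart and muscle isoform, stood at 0.333, against 0.833 in Cox7a2. Cox6b2, a testis isoform, stood at 0.432, against 0.807 in Cox6b1. The order was the other way in the Cox7b pair, at 0.564 in the testis isoform Cox7b2 and 0.368 in Cox7b. The NRF1, YY1, ETS and SP1 motifs contain CpG themselves, and their shares were not compared at equal CpG ratio.

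Many members began close to a gene on the other strand. Of the 92, 32 had a protein-coding gene starting on the opposite strand within 1000 bases of their own start, against 10.7% of all protein-coding genes, and 24 had one within 300 bases, against 7.27%. Such divergent pairs can share a promoter region. In 23 pairs a gap separated the starts, and in 9 the genes overlapped at their 5′ ends. Within 100 bases there were 15 pairs and within 200 bases 24, and 0 of the 32 partners were members.

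By complex, the layout was found in 3 of 4 complex II genes, 4 of 8 complex III genes, 3 of 7 complex I core subunits, 12 of 29 accessory subunits, 3 of 7 assembly factors, 5 of 17 ATP synthase genes and 2 of 20 complex IV genes. The 10 nearest pairs began with Ndufs1, the largest core subunit of complex I, which overlapped Eef1b2, a translation elongation factor subunit, with starts 8 bases apart. Ndufa7 and Rps28, a protein of the small ribosomal subunit, started 29 bases apart, as did Sdha and Ccdc127. Sdhd and Timm8b, a chaperone of mitochondrial protein import, started 52 bases apart, as did Ndufa8 and Morn5. Then followed Ndufb3 and Fam126b at 61 bases, Ndufa11 and Vmac at 63, Ndufaf7 and Cebpz at 65, Ndufb9 and Tatdn1 at 80, and the X-linked Ndufa1 and Rnf113a1 at 82.

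Some partners are themselves mitochondrial or tied to the chain. Ndufb5 overlapped Mrpl47, a protein of the mitochondrial ribosome, with starts 615 bases apart. Atp5j, a peripheral stalk subunit of ATP synthase, overlapped Gabpa, which encodes the ETS factor named above, with starts 700 bases apart. By contrast, Gdf9, known as an oocyte growth factor, started 192 bases from Uqcrq. From the starts of the transcripts with the longest coding sequence, Uqcrq had no divergent partner within 1000 bases. These examples were chosen after the partners were seen.

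**Figure D2:**
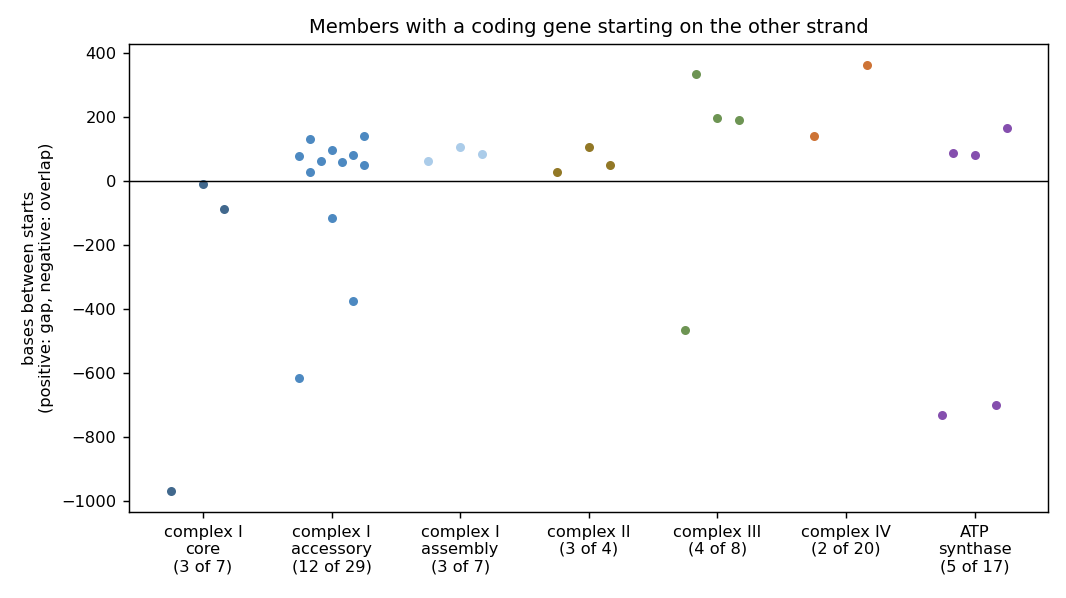
Distance in bases between the start of each of 32 members and the start of its partner on the other strand (points), by complex. Positive values are gaps and negative values are overlaps of the 2 genes; 24 pairs lie within 200 bases, and complex IV has 2 pairs, at 143 bases (Cox4i1) and 363 bases (Ndufa4).

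For pairs with a gap of at most 30 bases, the whole sequence between the starts could be printed, in the direction of the member. That between Sdha and Ccdc127 held an NRF1 motif, in capitals, and that between Ndufa7 and Rps28 held none of the 7 motifs searched.
Sdha and Ccdc127, chr13:74350281-74350308, minus strand: ggaggggcgtgttGCGCAGGCGCagaat
Ndufa7 and Rps28, chr17:33824563-33824590, plus strand: accgcacgcggtacccaggaatcctcgg
Divergent layout and the NRF1 motif were counted together. Among members with a promoter window, 7 of 22 divergent ones (31.8%) and 11 of 51 others (21.6%) held the motif. Over all promoters the shares were 15% of 1757 divergent and 5.92% of 13962 other windows, so the member share was above that of all genes in both layouts. For the ETS motif, 4 of 22 divergent members (18.2%) held it against 28.3% of all divergent windows, and 12 of 51 other members (23.5%) against 10.3% of all other windows.

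The encoded proteins were small. The longest coding sequence had a median of 145 codons in members (quartiles 99.8 and 216, n = 92), against 391 codons in all protein-coding genes (quartiles 253 and 648, n = 21762). At most 150 codons were found in 49 of 92 members, against 9.91% of all genes. The range ran from 52 codons in Atp5e, the epsilon subunit of ATP synthase, to 727 in Ndufs1, which carries iron-sulfur clusters of complex I. The next shortest were Uqcr11, a complex III subunit, at 56 codons and Cox7c, a complex IV subunit, at 63. The next longest were Sdha at 664 and Atp5a1, the alpha subunit of the catalytic head of ATP synthase, at 553.

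Sizes differed by role. Complex IV genes, most of them supernumerary subunits around a mitochondrially encoded core, had a median of 84.5 codons, and 18 of 20 had at most 150. Complex III genes had a median of 100 codons with 5 of 8 at most 150, a set made of 2 large core proteins (Uqcrc1 at 480 codons and Uqcrc2 at 453), the iron-sulfur protein Uqcrfs1 at 274 and 5 small subunits. Accessory subunits of complex I had a median of 137 codons with 18 of 29 at most 150, and ATP synthase genes 161 with 8 of 17. Core subunits of complex I (263), complex II (225.5) and the assembly factors (330) had no gene of at most 150 codons.

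**Figure D3:**
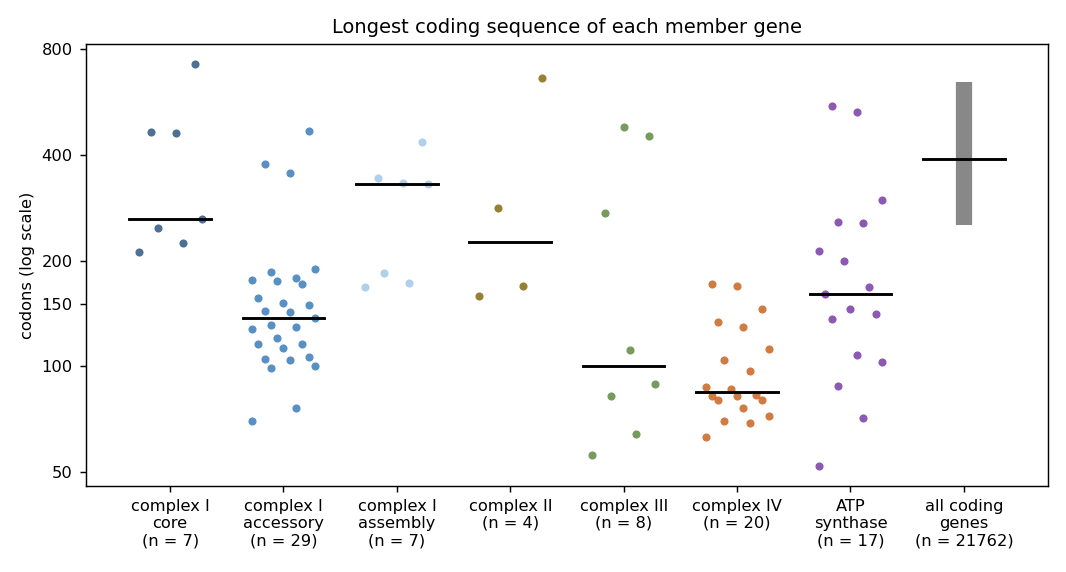
Codons of the longest coding sequence of each member (points, log scale) by complex, with the group median as a line. The grey bar at the right spans the quartiles of all 21762 protein-coding genes, 253 to 648 codons, with the median at 391, and the complex IV points lie between 63 and 172.

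The rest of the transcript was short as well. In the complete transcript with the longest coding sequence, members had a median of 4 coding exons against 6 in all genes, 870 spliced bases against 2401.5, and a 3′ untranslated length of 156 bases against 622. Exceptions had long 3′ ends in that transcript, led by Atp5g1 at 4252 bases and Ndufb2 at 4012. Other complete transcripts of equal coding length had 3′ lengths of 114, 117 and 4237 bases in Atp5g1 and 105 in Ndufb2. The median span on the chromosome was 7502.5 bases against 16506.

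The 5′ leader, the part of the transcript before the start codon, differed less. Its median was 94 bases in members (quartiles 58 and 157), against 135 in all genes (quartiles 58 and 265, n = 21244 with a complete coding sequence). Leaders of at most 30 bases were found in 8 of 92 members, against 16.3% of all genes. They were Ndufa3 at 12 bases, Ndufa9 at 13, Sdhc at 25, Ndufaf6 and Ndufb9 at 28, Ndufa12 and Atp5sl at 29, and Ndufaf7 at 30. The longest were Ndufa13 at 775 bases, Atp5d at 635 and Atp5j2 at 547.

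Several of these lengths depended on the transcript or on the start used. Ndufa3 had a second transcript with a shorter coding sequence, 84 codons in place of 100, and a leader of 25 bases. Atp5d had a second complete transcript of equal coding length, 168 codons, with a leader of 151 bases. Ndufa12 had a second complete transcript of 145 codons in place of 149, with a leader of 90 bases. Its RefSeq start lay 31 bases after the start of the 149-codon transcript, beyond that leader of 29 bases. The Ndufa12 window below shows the start codon of the 149-codon transcript. From the RefSeq start the leader of Ndufa13 was 237 bases and that of Atp5j2 was 26. From that start, 11 of the 69 members with such a leader had at most 30 bases, with no share over all genes beside this count. The shortest were Cox6a1 at 8 bases, Ndufb4 at 9 and Atp5g1 at 13. Of the short leaders named above, Ndufa3 at 25 and Ndufaf7 at 30 stayed within 30 bases, and Ndufa9 had 32. Sdhc, Ndufaf6, Ndufb9, Atp5sl and Ndufa12 had no leader from that start. Taking the shortest leader of any complete transcript, 22 of 92 members reached 30 bases or fewer, against 24.4% of all genes. The windows around the start codon, in capitals, are shown for Ndufa3, Ndufa12 and Ndufaf7, since that of Ndufa9 stands above and Sdhc, Ndufaf6, Ndufb9 and Atp5sl had no match in the promoter table.
Ndufa3, chr7:3617386-3617415, plus strand: gccaagaacaagATGgccgggagtaagtac
Ndufa12, chr10:94199021-94199050, plus strand: aaggggcggaccATGcagatgagaatggag
Ndufaf7, chr17:78937153-78937182, plus strand: cggggtgtaggaATGaatgctttggtgaga
The start codon lay in the first exon in 74 members, against 68.3% of all genes, in exon 2 in 15 members and in exon 3 in 3, which were Atp5h, Atp5j and Cox7b2.

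**Figure D4:**
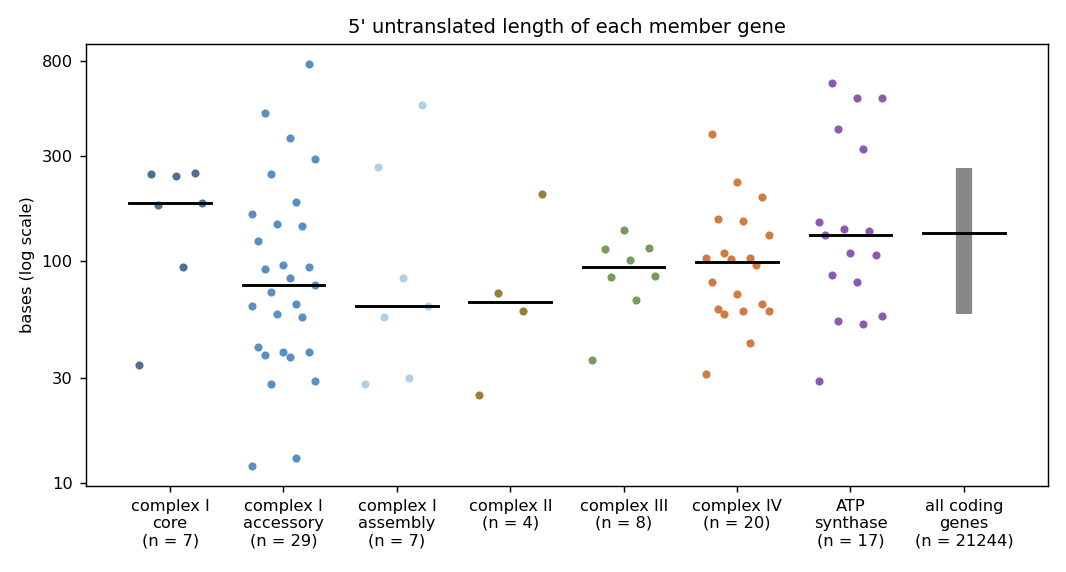
Length in bases of the 5′ untranslated part of each member's transcript with the longest complete coding sequence (points, log scale) by complex, with group medians as lines. The grey bar spans the quartiles of all genes, 58 to 265 bases, and the accessory subunits of complex I run from 12 to 775.

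Isoform families were compared by the lengths of their coding exons. Equal lengths can hold different sequence, and sequence identity was not computed. The 3 genes of the ATP synthase c subunit encode the same mature protein behind different import sequences. Their coding exons measured 39, 78, 179 and 112 bases in Atp5g1, 39, 93, 194 and 112 in Atp5g2, and 39, 78, 194 and 112 in Atp5g3. The first and last were thus equal in length in all 3, and the middle ones differed by 15 bases where they differed, a whole number of codons.

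Complex IV isoforms differed in how many coding exon lengths they shared. Cox4i1 and Cox4i2 shared coding exon 3, of 132 bases, and the last one, of 134, while the first measured 73 bases in Cox4i1 and 85 in Cox4i2. Cox6a1 and Cox6a2 shared a last exon of 81 bases, with first exons of 112 and 73 bases in that order. Cox7a1 and Cox7a2 shared coding exon 3, of 85 bases, with last exons of 53 bases in Cox7a1 and 56 in Cox7a2. Ndufa4 and Ndufa4l2 shared all exon lengths but the first, with 89, 61 and 54 bases, and the first had 42 bases in Ndufa4 and 57 in Ndufa4l2. Cox8a, Cox8b and Cox8c had 2 coding exons each and shared no length.

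Some copies had another layout. Cox7b2 had its 246 coding bases in 1 exon, against 3 exons of 40, 125 and 75 bases in Cox7b, and it was the only member with 1 coding exon, against 15.9% of all genes. A transcript of Cox7b2 carried the biotype of a transcribed processed pseudogene. The longest coding sequence of Cox6b2 had 2 exons and 104 codons, against 3 exons and 86 codons in Cox6b1, but 4 other transcripts of Cox6b2 had 3 coding exons and 88 codons. The longest coding sequence of Cox7a2l, a factor of supercomplex assembly, had 4 exons and 134 codons and matched no exon length of Cox7a1 or Cox7a2. Another complete transcript of Cox7a2l, with 3 coding exons and 111 codons, was not compared. Atp5s and Atp5sl, a pair alike in name, had 4 and 6 coding exons with no length in common.

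**Figure D5:**
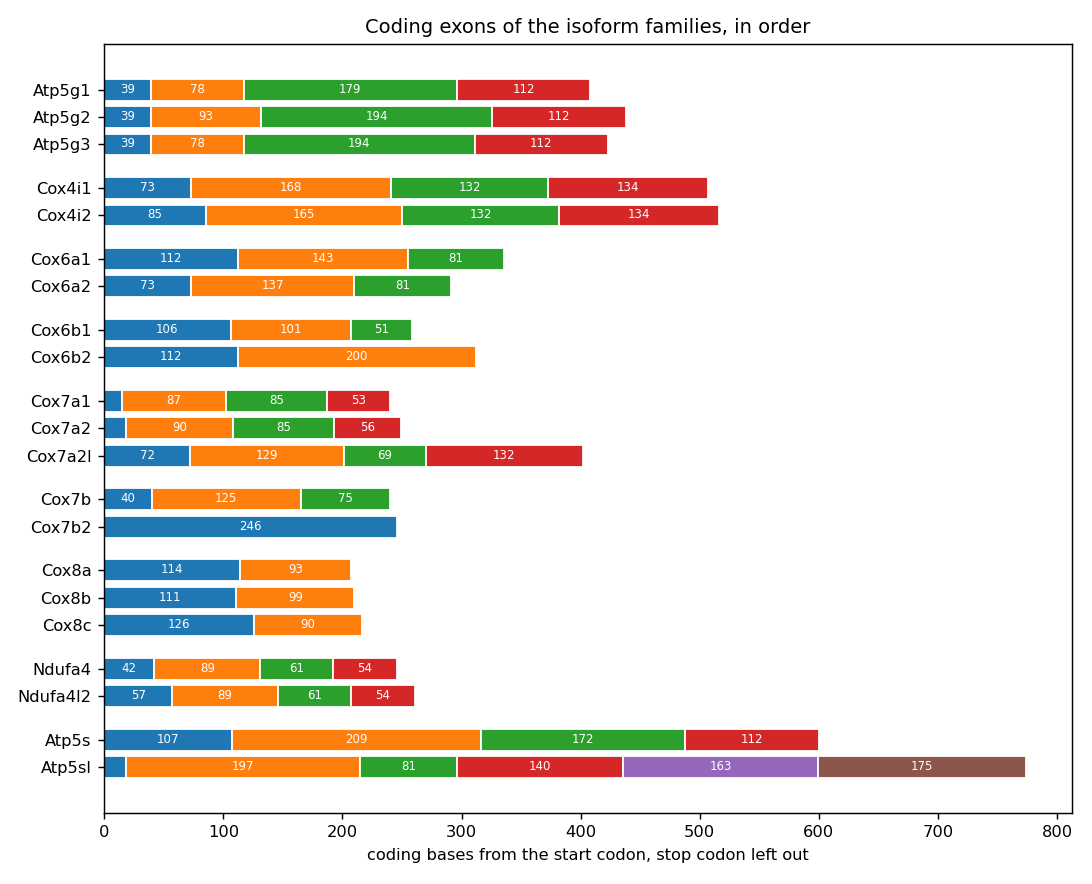
Coding exon lengths in bases, in order from the start codon, for the isoform families, with each exon in a colour by its rank. Last exons of equal length are seen in the Atp5g genes (112 bases), Cox4i genes (134) and Cox6a genes (81), and Cox7b2 is a single block of 246 bases.

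Members had 367 transcripts, with a median of 3 per gene against 2 in all genes. Of these, 159 carried no coding sequence (43.3%), against 33.5% over all protein-coding genes. Retained introns made up 89 transcripts (24.3% against 18.8%), processed transcripts 69 (18.8% against 14.6%) and transcripts marked for nonsense-mediated decay 19 (5.18% against 6.00%). A retained-intron transcript was annotated in 40 of 92 members, against 30.3% of all genes. Ndufs1 had the most transcripts with 13, followed by Atp5j with 12 and Ndufv1 with 11, a core subunit of complex I that binds NADH. Of these, 5 of 13, 8 of 12 and 5 of 11 had no coding sequence in Ndufs1, Atp5j and Ndufv1 in that order. At the other end, 27 of 92 members had a single transcript, against 38.7% of all genes.

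Over all transcripts with a coding sequence, truncated models included, 51 members had 1 coding length, against 53.5% of all genes. Over complete transcripts, with both a start and a stop codon, 63 of 92 members had 1 coding length, against 63.4% of all genes, and 29 had more. Ndufs1, with 7 lengths over all its models, had 1 over its complete transcripts, 727 codons. Atp5c1, the gamma subunit that forms the rotor shaft of ATP synthase, had complete lengths of 298, 297 and 274 codons, and Ndufb5 of 189, 181 and 119. Ndufv3, an accessory subunit with a short and a long form, had complete coding lengths of 468, 104 and 86 codons. Atp5o, a peripheral stalk subunit, spanned 247290 bases because of its transcript Atp5o-008, which ran from 91684398 to 91926982 on chromosome 16, while its other transcripts lay between 91925214 and 91931687.

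Exons shared with other genes bear on how reads of these genes could be assigned. On the same strand, 7 of 92 members shared exon bases with another gene model, against 13.0% of all genes, and 3 shared over 50% of them, against 7.15%. Those 3 were assembly factors of complex I. Ndufaf7, which methylates a complex I subunit, shared 100% of its exon bases with the added model 2410091C18Rik. Ndufaf6 shared 87.6% with 2310030N02Rik and Ndufaf5 65.2% with 2310003L22Rik. The shared bases, 1082 in Ndufaf6 and 1166 in Ndufaf5, equalled the spliced length of the only complete transcript of each gene. The first 2 added models began and ended at the same bases as the complete transcripts of Ndufaf7 and Ndufaf6. Added models are lines of RefSeq source without a biotype. The other 4 shared less, Atp5o 287 bases with Donson (12.7%), Atp5g2 75 bases with Mir688 (4.48%), Ndufb8 134 bases with Gm20538 (4.26%) and Ndufb2 145 bases with RP23-366P9.8 (2.58%). The labels do not state whether counting used strand, and no read count was analysed.

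On the opposite strand, 29 of 92 members shared exon bases with another gene, against 22.2% of all genes. In 9 members the partner was an added model, against 4.08% of all genes. The largest shares were those of Sdhd with Gm19447 (1167 bases, 90.7%), Ndufa8 with LOC100861632 (69.8%), Uqcr11 with Gm19876 (64.9%), Ndufa6 with LOC100862061 (60.9%) and Cox7a2 with LOC100862063 (48.9%). In 6 members an opposite-strand model repeated an intron with both ends within 15 bases, against 0.772% of all genes, and all 6 partners were added models. They were Sdhd, Ndufa8, Uqcr11 and Cox7a2 with 2 introns each, and Ndufa6 and Atp5d with 1. The ends were shifted by 2 to 12 bases at the lower coordinate and by at most 10 at the upper. These matches were looked for after the overlaps had been seen.

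Small RNA models numbered 10 within member genes, and no share over all genes is given beside this count. Atp5b, the catalytic beta subunit of ATP synthase, held Snord59a and 2 models of mir-677. Atp5g2 held Mir688 inside an exon and Ndufa10 held Mir6900 in an intron. Of the Atp5g2 transcripts, only the incomplete Atp5g2-002, with 31 codons, reached Mir688. The complete transcript Atp5g2-001 started downstream of it, at 102671127. Reads of Atp5g2-002 and of the Mir688 locus can share bases, while Mir6900 lies in bases spliced out of Ndufa10. The mature sequences are shown with the seed (bases 2 to 8) in capitals.
miR-688, chr15:102671802-102671821, minus strand: uCGCAGGCgacuacuuauuc
miR-6900-5p, chr1:92464514-92464537, minus strand: uGCCAGGAgaagccuagagccguc
miR-6900-3p, chr1:92464483-92464503, minus strand: uGGUGAUGggcucucuuguag
The 3 seeds differed from each other.

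Members were spread over the genome. Chromosome 7 held 10 of 92 (10.9%), against 9.25% of all protein-coding genes, chromosome 14 held 0, against 4.17%, and the X-linked members were Ndufa1, Ndufb11 and Cox7b. Pairs within 500000 bases of each other numbered 7 and involved 11 members, against 8.42% of all protein-coding genes with a member at that distance. Among them were Ndufs8 and Ndufv1, both complex I core subunits, on chromosome 19 with 94780 bases between them. On chromosome 10, Atp5d, Ndufs7 and Uqcr11 from 3 complexes lay in a row, with 103303 bases between Atp5d and Ndufs7 and 146203 between Ndufs7 and Uqcr11.

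Genes of the pathway outside the naming rule were taken from a list of 42 symbols, most of them assembly and regulatory factors, with cytochrome c, the complex III subunit Cyc1 and the small ATP synthase subunit Usmg5 among the others. All were found, 41 by symbol and Dmac2 as the member Atp5sl, which leaves 41 genes outside the members. Of these, 11 of 41 (26.8%) had a divergent partner within 1000 bases, against 10.7% of all protein-coding genes, among them Surf1 and Sco1, which serve complex IV assembly, and Bcs1l, which inserts the iron-sulfur protein of complex III. At most 150 codons were found in 19 of 41 (46.3%), against 9.91%, and a leader of at most 30 bases in 5 (12.2%), against 16.3%. Over 50% of exon bases were shared on the same strand in 12 of 41 (29.3%), against 7.15% of all genes, among them Cox14, Uqcc3 and Coa6 at 100%.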

How the data were processed

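The deposited file was a gene annotation of 1544831 lines; its values are start and end positions, and 0 lines carry a score. Per the submitters' processing notes, the tools included TopHat2 2.1.1, with mm10 as the build. The steps by which the authors made the annotation are not given in these sources.

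Gene models were read with Python 3.11.15, pandas 2.3.3 and numpy 2.4.6, and checked on simulated models. Codons exclude the stop codon. Leaders, exons and 3′ lengths came from the complete transcript with the longest coding sequence, ties going to the longer spliced transcript. Distances between genes came from the outermost gene starts. Promoter windows and miRNAs came from RefSeq (GRCm38.p6) and were matched by symbol. No test was run. Alternatives changed thresholds, transcripts, starts, partners and motif letters. Protein identity between isoforms was not computed; coding exon lengths were used in its place, a choice made after the data were seen.

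Named genes are the isoform families, the 3 highest and lowest members by codons, leader and transcripts, X-linked members, up to 10 nearest divergent pairs and exon-sharing members, and members with 2 of 3 motifs; others were chosen after their values were seen. Members and lists were chosen with earlier results of these data known. Some items are not reported here.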

Additional observations from a re-analysis of the deposited data

How the results depend on the processing

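Of 39 alternatives, 23 stayed within 1.5 times the reported count or inside the 95% interval of the median or share, and 16 did not. These limits served only to sort the alternatives and are not a test, since genes are not replicates. Members of at most 100 codons numbered 24, against 3.3% of all genes. The median leader was 69 bases with the shortest complete transcript. Leaders of at most 20 bases were found in 2 members (12.9% of all genes), of at most 50 in 17 (22.6%), and of at most 30 in any complete transcript in 22 (24.4%). Exon sharing covered 3 members over 50% (7.15% of all genes), 4 with Ensembl models only (6.26%) and 34 on either strand (31.8%). Before the start only, 0 members held YY1 (0.464% of all promoters) and 1 ERR alpha (0.305%). Without their outermost bases, motifs were found in 7 members for YY1 (2.81% of all promoters), 48 for ETS (37.4%), 7 for ERR alpha (3.51%), 56 for SP1 (63.4%), 73 for CCAAT (99.3%) and 36 for TATA (56.8%), as shorter motifs match more often. NRF1 stood in 13 members before the start only (5.53%) and 26 when shortened (12.1%). Divergent partners were found for 24 members within 300 bases (7.27% of all genes) and 33 within 2000 bases (12.1%). With a partner of any biotype there were 36 (17%). From the start of the transcript with the longest coding sequence there were 27 (9.32%). The RefSeq start, the start of the transcript with the longest coding sequence and the coding lengths of complete transcripts were added after the data were seen. Protein identity over the last 75 residues was not run. No paired analysis was possible because the annotation holds gene models, with no measurement of a sample. Depth is unknown, and gene models do not measure expression.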

Other observations

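Some subunits of the chain stood in the annotation under other names and were outside the rule. Ndufb1, a complex I accessory subunit that RefSeq lists as protein-coding, was present only as the added model Gm2695 on chromosome 12, from 101958274 to 101977068, without a coding sequence. The small ATP synthase subunits that RefSeq names Atp5mpl and Atp5md stood as 2010107E04Rik and Usmg5, with 58 codons each, and the assembly factor Ndufaf8 as 1810043H04Rik with 86 codons. Ndufb4c, protein-coding in RefSeq, was the processed pseudogene Gm3244 here. In the other direction, Gm11273 on chromosome 13, from 21501029 to 21501418, was protein-coding with 129 codons, as many as Cox5b, and no leader, while RefSeq lists it as the pseudogene Cox5b-ps. RefSeq names the members Atp5s and Atp5sl Dmac2l and Dmac2.

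RefSeq listed 19 pseudogene copies with names of the family, and 4 models carried such a name in the annotation, Atp5l-ps1, Atp5l-ps2, Atp5k-ps2 and Atp5l2-ps. Atp5k-ps1 and Ndufab1-ps had no model at their place. The sequence match between these copies and their parent genes was not measured.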
